A study of Mus musculus with 3 samples.

Results

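10 genes that encode alarmins, S100 proteins, annexins and secreted acute phase or antiprotease proteins (*S100a8*, *S100a9*, *S100a4*, *S100a6*, *S100a10*, *S100a11*, *Saa3*, *Slpi*, *Anxa1* and *Anxa2*) were followed through the cell classes of FA-treated mouse kidneys. They were 10 of the 27998 genes counted in the files, and all 10 had UMIs in every library. The genes had been selected from their summed UMI levels in these same libraries, so their levels and differences are given as descriptions. Levels were obtained by summing the raw UMIs of a gene over the cells of a class in 1 library and scaling to 1000000 UMIs of that class and library (CPM). Peritoneal-like macrophages and injured tubule-like cells were kept apart from the other macrophages and tubule cells.

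The libraries came from kidneys collected on day 14 after treatment with folic acid (FA), which injures the tubules and is followed by fibrosis. The *Aoah-/-* group had 2 mice, numbered 2 and 3, and the WT group 1 mouse, numbered 3, all aged 6 to 8 weeks according to the labels, all FA-treated and with 1 library each, so that a group without FA was not part of the comparison. *Aoah* encodes acyloxyacyl hydrolase, a lipase that removes acyl chains from bacterial LPS, the mice were backcrossed to C57/BL6J with littermates as WT, and the knockout was global, so it reached leukocytes as well as tubules. In droplet scRNA-seq every captured RNA molecule is tagged with a cell barcode and a unique molecular identifier (UMI). The libraries held 167222984, 161015021 and 158551992 UMIs in *Aoah-/-* mice 2 and 3 and the WT mouse, and 21368, 19692 and 18202 cells were kept. With a single WT library no test across mice could be made, the WT side has no replicate check, and no p-value is given.

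The kept cells formed 36 clusters, of which 31 were named by marker genes into 19 classes that held 94.0% of the cells. *Aoah* itself was at 6.75, 6.19 and 18.2 CPM over all kept cells and at 3.65, 4.70 and 21.5 CPM in macrophage-like cells of high UMI content, in the order *Aoah-/-* mice 2 and 3 and the WT mouse. UMIs of *Aoah* were thus lower in the knockouts but not absent, and which part of the gene was deleted was not examined here. Several library differences touch the 10 genes. *Aoah-/-* mouse 2 had 1403 peritoneal-like macrophages against 20 in *Aoah-/-* mouse 3 and 78 in WT. *Aoah-/-* mouse 3 had no barcode under 1672 UMIs, where the other libraries went down to 500, and its erythroid-like cells numbered 776 against 116 and 296. Pairs of libraries shared 171 to 176 barcodes, of which 109 to 117 were kept and 13 to 26 fell in the same class. A gene is called higher or lower below where both *Aoah-/-* libraries were at least 1.5-fold above, or both at least 1.5-fold below, the WT library after adding 1 CPM. Without the shared barcodes the calls of the members in proximal tubular epithelial (PTEC)-like, macrophage-like and peritoneal-like classes kept their number, and in injured tubule-like cells 4 of 5 calls remained.

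S100 proteins are small calcium-binding proteins. S100A8 and S100A9 pair to form calprotectin, which neutrophils store in bulk and release at sites of injury, where it acts on Toll-like receptor 4 as an alarmin. S100A10 binds annexin A2 in a complex at the cell membrane that recruits plasminogen and its activators, S100A11 pairs with annexin A1, and S100A4 and S100A6 mark motile or proliferating cells. Annexins bind membrane phospholipids in a calcium-dependent way, and annexin A1 also acts through formyl peptide receptors to limit neutrophil entry. Serum amyloid A3 (*Saa3*) is an acute phase protein made outside the liver, in macrophages and epithelia, and *Slpi* encodes a secreted inhibitor of neutrophil elastase and cathepsin G.

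Of the members, 6 lie on chromosome 3 (GENCODE M21, GRCm38), where many S100 genes stand side by side. *S100a4* (chr3:90603771-90606045) is followed by *S100a6* (chr3:90612882-90624181), *S100a8* (chr3:90668978-90670035) and *S100a9* (chr3:90692632-90695721, minus strand), all within 92.0 kb. *S100a11* (chr3:93520488-93526287) and *S100a10* (chr3:93555080-93564643) lie further along the chromosome. *Slpi* is at chr2:164354070-164389095, *Saa3* at chr7:46711998-46715700, *Anxa2* at chr9:69453620-69491795 and *Anxa1* at chr19:20373428-20390944.

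The results on granulocytes and peritoneal-like macrophages turn on *S100a8*, *S100a9*, *Saa3* and *Slpi*, and the sequence ahead of their start sites (RefSeq, GRCm38.p6) is therefore shown, on the strand of the gene. *S100a8* is shown at chr3:90668821-90668977 (plus strand), *S100a9* at chr3:90695722-90695971 (minus), *Saa3* at chr7:46715701-46715926 (minus) and *Slpi* at chr2:164356508-164356757 (minus). Each stretch was cut at its first base within an annotated exon, so the *S100a8* stretch ends 93 bases and the *Saa3* stretch 24 bases before the RefSeq start. Capitals mark matches to TTNNGNAA on either strand, the core recognised by C/EBP factors, which act in myeloid differentiation and the acute phase response.
S100a8: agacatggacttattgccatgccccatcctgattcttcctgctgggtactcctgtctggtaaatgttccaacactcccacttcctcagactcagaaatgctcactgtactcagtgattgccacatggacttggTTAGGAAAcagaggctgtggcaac
S100a9: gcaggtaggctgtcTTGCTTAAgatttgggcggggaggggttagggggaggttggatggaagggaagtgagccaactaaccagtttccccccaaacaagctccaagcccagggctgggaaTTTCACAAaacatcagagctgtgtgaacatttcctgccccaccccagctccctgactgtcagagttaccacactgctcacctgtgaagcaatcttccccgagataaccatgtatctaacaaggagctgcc
Saa3: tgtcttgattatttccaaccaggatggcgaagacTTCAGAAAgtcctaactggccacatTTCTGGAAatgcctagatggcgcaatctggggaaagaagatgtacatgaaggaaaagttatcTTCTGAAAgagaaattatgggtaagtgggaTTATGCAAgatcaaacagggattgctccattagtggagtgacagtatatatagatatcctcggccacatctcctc
Slpi: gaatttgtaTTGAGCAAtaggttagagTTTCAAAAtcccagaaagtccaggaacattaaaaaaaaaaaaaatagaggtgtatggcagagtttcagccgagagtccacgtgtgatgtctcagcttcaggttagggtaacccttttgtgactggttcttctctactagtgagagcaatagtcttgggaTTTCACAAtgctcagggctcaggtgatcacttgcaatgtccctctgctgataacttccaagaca

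In the 250 bases before the start, *Saa3* held 4 matches, *Slpi* 3, *S100a9* 2 and *S100a8* 1, and *Anxa1* also held 1. Thus 5 of the 9 members in the promoter table had a match, exon bases included, against 36.8% of 32851 promoters of that length. The AP-1 letters TGANTCA were found in *S100a11* with 2 matches and in *Anxa2* with 1, or 2 of 9 members, against 6.75% of all promoters. The 250 bases of *Anxa1* begin within an annotated exon. These are matches of letters only.

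*S100a8* and *S100a9* were granulocyte genes in all 3 libraries, and their level in CPM within the granulocyte-like class was alike in *Aoah-/-* and WT. In granulocyte-like cells *S100a8* was at 12813, 13553 and 14237 CPM in *Aoah-/-* mice 2 and 3 and the WT mouse. *S100a9* was at 30020.3, 29226 and 28845 CPM in the same order. Set against the WT library after adding 1 CPM, the mean of the *Aoah-/-* libraries had a log2 ratio of -0.11 (SD 0.06) for *S100a8* and 0.04 (SD 0.03) for *S100a9*, where the SD is that between both *Aoah-/-* libraries. After every cell had been thinned to 1000 UMIs, 87.7, 84.0 and 82.5% of these cells held a UMI of *S100a9* (90.0, 87.7 and 85.8% without thinning). Thinning left out kept cells with fewer UMIs, which were 3395, 0 and 3166 of the libraries in that order.

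What differed was the number of these cells. Granulocyte-like cells, a class led by *Il1b*, *Retnlg*, *Cxcl2* and *Csf3r*, made up 3.88, 3.21 and 1.20% of the kept cells (830, 633 and 218 cells), with exact binomial 95% intervals of 3.63 to 4.15%, 2.97 to 3.47% and 1.04 to 1.37%. Both *Aoah-/-* libraries lay above the WT library. The shares were not measured alike, since *Aoah-/-* mouse 3 had no barcode under 1672 UMIs and the other libraries went down to 500. Granulocyte-like cells were small, with medians of 1621, 2194 and 1952.5 UMIs, and the shares were not compared at a common minimum. These intervals, like the exact Poisson intervals of the levels below, cover counting error only. Over all kept cells *S100a8* then stood at 169, 222 and 69.2 CPM and *S100a9* at 395, 491 and 137 CPM. The whole-library levels of the *Aoah-/-* mice were above those of the WT mouse for both genes, with no such difference within the granulocyte-like class.

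Granulocyte-like cells held 89.1, 80.2 and 80.2% of the *S100a8* UMIs and 89.5, 78.2 and 82.3% of the *S100a9* UMIs of *Aoah-/-* mice 2 and 3 and the WT mouse. A single WT barcode, described below, held many of the UMIs outside the class, and without it the WT shares were 93.0% for *S100a8* and 93.3% for *S100a9*. With it, the share of both genes together averaged 83.3% over the libraries. There were 2.34, 2.16 and 2.03 UMIs of *S100a9* for each of *S100a8* within the class, and 2.25, 2.44 and 1.75 outside it. In this class all 10 members passed the minimum of 20 CPM in a group, and 1 was called higher. The member was *Saa3*, at 151, 9.94 and 6.17 CPM, and without the 5 cells of each library with the most UMIs of the gene it was at 101, 0 and 0 CPM. Among all 5258 genes tested in the class, 13.6% were called higher and 3.67% lower, so the class as a whole differed widely between the libraries.

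Other members were plentiful in granulocyte-like cells too. *S100a6* was at 2276, 2508 and 2888 CPM and *S100a11* at 2445, 2351 and 3112 CPM, with the WT library the highest for each. *Slpi*, the antiprotease that protects tissue from the granules' own elastase, was at 1556, 1303 and 1571 CPM. *S100a4* was low in these cells, at 31.5, 47.4 and 26.8 CPM. None of these 4 genes was called.

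**Figure D1:**
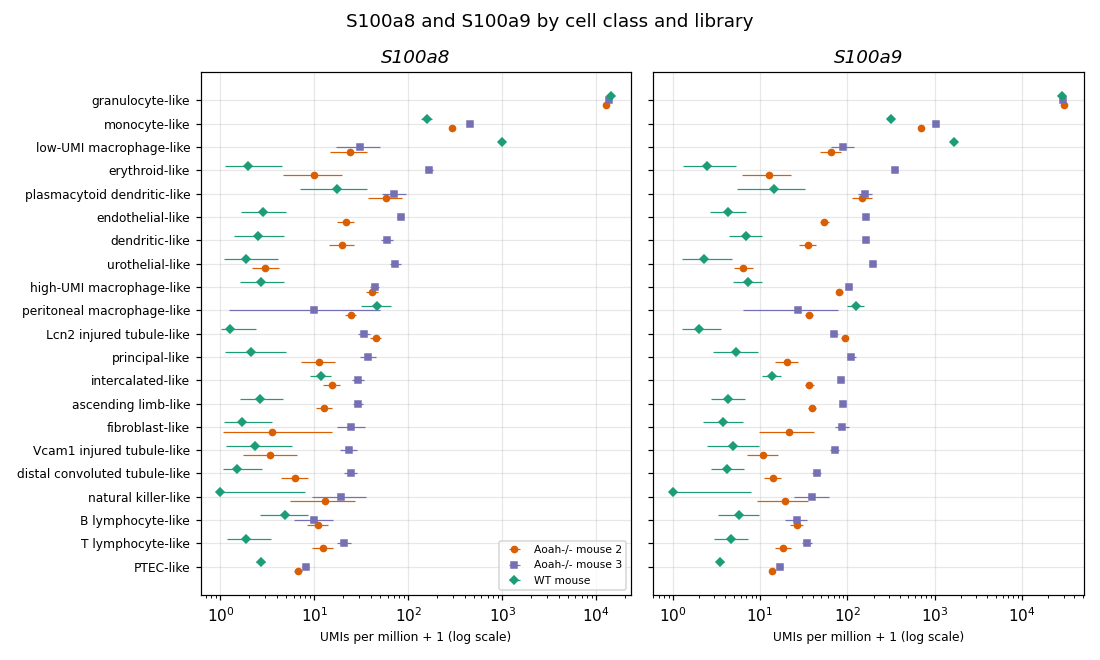
Level of S100a8 and S100a9 (x axis, CPM + 1, log scale) in each cell class (y axis) of the 3 libraries, with exact Poisson 95% intervals as bars. The granulocyte-like levels of the 3 libraries lie together, whereas outside that class the *Aoah-/-* libraries mostly lie above the WT mouse, except for the low-UMI macrophage-like and peritoneal macrophage-like classes.

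Outside granulocyte-like cells, *S100a8* and *S100a9* were found at low level in nearly every class, and more in the *Aoah-/-* libraries. At least 1 UMI of either gene was held by 10.1, 19.9 and 2.47% of the other cells in *Aoah-/-* mice 2 and 3 and the WT mouse. Only 61, 140 and 15 of these cells held 20 or more UMIs. As a measure of free RNA, intercalated-like cells were pooled with those like the ascending limb and the distal convoluted tubule, which should all lack both genes. They had *S100a9* at 30.9, 73.7 and 6.77 CPM and *S100a8* at 10.8, 26.8 and 4.62 CPM. A few cells raised these values, since without the 5 highest cells of each library *S100a9* was at 14.0, 56.9 and 1.99 CPM. *S100a8* was then at 5.31, 20.9 and 0.665 CPM. Low levels elsewhere are read against the reference treated in the same way.

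Monocyte-like cells, the circulating precursors of macrophages, were the named class with the next highest mean over the libraries. Their *S100a8* was at 290.3, 448 and 156 CPM and their *S100a9* at 695, 1028 and 312 CPM. A few cells carried most of it, since the 5 highest cells held 57.5, 57.3 and 69.4% of the UMIs of both genes. After thinning, 7.87, 8.27 and 3.93% of monocyte-like cells held *S100a9*, against 1.44, 7.97 and 0.241% of the free RNA reference, and without thinning 10.3, 14.9 and 5.30% against 7.49, 17.6 and 2.03%. The monocyte-like share of *Aoah-/-* mouse 3 thus lay near the reference of its own library. Erythroid-like cells of that library were at 355 CPM of *S100a9* and urothelial-like cells at 194 CPM, against 11.5 and 5.45 CPM in *Aoah-/-* mouse 2, where the reference was also lower.

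In macrophage-like cells a single WT barcode set the result. *S100a8* was at 37.7, 42.2 and 256 CPM and *S100a9* at 77.8, 103 and 433 CPM in *Aoah-/-* mice 2 and 3 and the WT mouse, and both were called lower in *Aoah-/-*. This barcode, in the macrophage-like cluster of low UMI content, held 3189 of that cluster's 3203 UMIs of both genes in the WT library. It had 16416 UMIs, 1191 of *S100a8*, 1998 of *S100a9*, 175 of *Elane*, 234 of *Ngp* and 171 of *Camp*, which are genes of granulocyte precursors, and none of *C1qa* or *Cd74*. Without the low-UMI cluster *S100a8* was at 40.4, 42.9 and 1.72 CPM and *S100a9* at 80.4, 104 and 6.31 CPM, both called higher. The direction thus depended on 1 barcode, and 5 cells held 86.9, 69.2 and 90.9% of the *S100a9* UMIs that remained.

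All 10 members passed the 20 CPM minimum in macrophage-like cells, with 1 called higher, *Saa3*, and 2 lower, where 2.93% and 0.781% of 5250 genes were called. In the high-UMI cluster 9 passed and 3 were called higher, the 2 genes above and *Saa3*, where 1.7% of 5349 genes were called higher and 0.785% lower. The clusters were not filled alike: the low-UMI cluster held 834, 147 and 1102 of the 1628, 1309 and 1703 macrophage-like cells. *S100a4*, *S100a6*, *S100a10*, *S100a11*, *Anxa1* and *Anxa2* were called in neither setting. *Anxa1*, for example, was at 82.5, 135 and 115 CPM in the high-UMI cluster, with the WT library between the *Aoah-/-* libraries.

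*Saa3* was a gene of peritoneal-like macrophages, and its level summed over all of them was alike in the 3 libraries. This class is led by *Fn1*, *Prg4*, *Alox15* and *Serpinb2*, genes of large peritoneal macrophages. *Prg4* was at 2816, 1925 and 2271 CPM and *Alox15* at 1845, 1591 and 1798 CPM in it, and the 15 markers of the list summed to 17475, 15974 and 15301 CPM. *Saa3* was at 9533, 8141 and 8509 CPM in *Aoah-/-* mice 2 and 3 and the WT mouse, with Poisson intervals of 9469 to 9597, 7625 to 8682 and 8286 to 8737. The log2 ratio was 0.05 (SD 0.16). After thinning, 96.4, 60 and 92.3% of the cells held *Saa3*, but in *Aoah-/-* mouse 3 the class had 20 cells, of which 5 held 84.7% of its *Saa3* UMIs. Without the 5 highest cells of each library *Saa3* was at 9393, 2172 and 7137 CPM.

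The number of these cells differed far more than the level within them. They were 6.57, 0.102 and 0.429% of the kept cells, so the *Aoah-/-* libraries lay on either side of the WT library. Over all kept cells *Saa3* followed, at 695, 11.5 and 49.6 CPM. The class held 93.7, 62.0 and 89.1% of the *Saa3* UMIs. The abundance of *Saa3* in a whole library therefore tracked a class that 1 of the *Aoah-/-* mice had and the other hardly had.

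The free RNA reference moved with that class: *Saa3* there was at 51.6, 0.609 and 2.39 CPM. PTEC-like cells were at 38.6, 0.266 and 2.51 CPM. Without the 5 highest cells of each library the reference was at 35.5, 0.392 and 1.99 CPM and PTEC-like cells at 38.2, 0.164 and 2.36 CPM, so the order of the libraries was the same in both. The summed level of the 15 peritoneal macrophage markers in PTEC-like cells was 66.0, 14.3 and 11.4 CPM. The low *Saa3* of tubule classes in *Aoah-/-* mouse 2 thus came with the markers of these macrophages, whose part in it was not tested. In high-UMI macrophage-like cells *Saa3* was at 39.5, 36.8 and 1.15 CPM and was called higher. The level of *Aoah-/-* mouse 2 lay below the free RNA reference of its own library. In *Aoah-/-* mouse 3, 5 cells held 92.8% of the *Saa3* UMIs, and without them the level was 2.69 CPM.

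*Slpi* had a different distribution, over macrophages, granulocytes and 1 cluster of the WT library. In peritoneal-like macrophages it was at 6092, 2180.3 and 7590.1 CPM in *Aoah-/-* mice 2 and 3 and the WT mouse. The log2 ratio of -0.88 (SD 1.05) had an SD larger than itself, so no difference stood out from the spread of the *Aoah-/-* libraries. Over all kept cells *Slpi* was at 476, 35.0 and 209.6 CPM, lowest in *Aoah-/-* mouse 3. Its main holder differed: peritoneal-like macrophages held 87.4, 5.44 and 18.8% of the *Slpi* UMIs and granulocyte-like cells 3.85, 48.9 and 2.92%. In the WT mouse 73.4% lay in unnamed clusters, mostly in a cluster of 150 WT cells and 1 cell of *Aoah-/-* mouse 2.

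That cluster was led by *Dcn*, *Igfbp6* and *C3* and had *Upk3b* and *Msln*, genes of mesothelium, among its 10 leading genes. *Slpi* was at 10773 CPM in its WT cells, and *S100a6* at 3690.4 CPM. It kept no class name because its markers were mixed. B lymphocyte-like cells had *Slpi* at 288, 418 and 255 CPM, but 5 cells of each library held 61.5, 59.4 and 82.1% of it. Monocyte-like cells, at 122, 118 and 116 CPM, and plasmacytoid dendritic-like cells, at 126, 149 and 152 CPM, were level across the libraries.

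**Figure D2:**
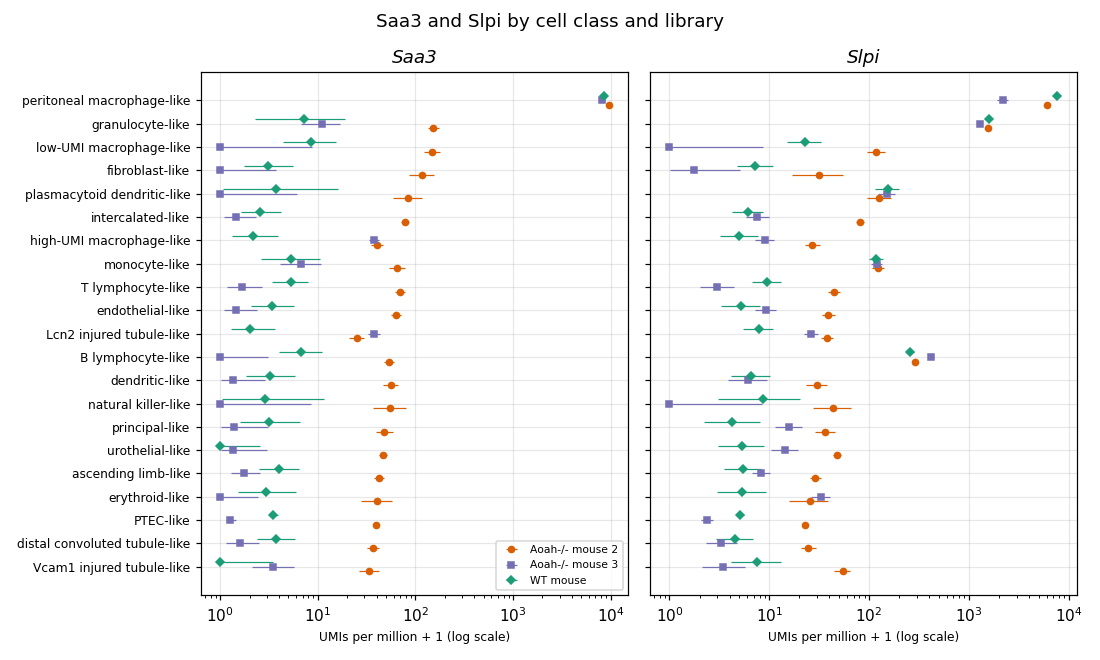
Level of Saa3 and Slpi (x axis, CPM + 1, log scale) in each cell class (y axis) of the 3 libraries, with exact Poisson 95% intervals as bars. *Saa3* of peritoneal macrophage-like cells lies between 8141 and 9533 CPM in the 3 libraries, and in most other classes *Aoah-/-* mouse 2 lies highest.

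Several other members of peritoneal-like macrophages were lower in *Aoah-/-* than in WT, where the class had 20 cells in *Aoah-/-* mouse 3 and 78 WT cells. All 10 members passed the minimum, 4 were called lower and 0 higher, where 3.17% of 5842 genes were called lower and 9.57% higher. The median log2 ratio of the members was -0.79, against 0.08 over all genes tested. *S100a4*, a marker of motile cells, was at 209.6, 273 and 531 CPM, a log2 ratio of -1.14 (SD 0.27). In *Aoah-/-* mouse 3 the 5 highest cells held 96.8% of its UMIs. Without the 5 highest cells of each library it was at 198, 14.9 and 415 CPM. *S100a6* was at 232, 219.8 and 441 CPM, a log2 ratio of -0.96 (SD 0.05). With every cell both *Aoah-/-* libraries lay below the WT library for *S100a6*, but *Aoah-/-* mouse 3 had only 25 UMIs of it. The 5 highest cells held 96.0% of the UMIs in *Aoah-/-* mouse 3 and 41.4% in WT. Without the 5 highest cells of each library *S100a6* was at 200, 14.6 and 290 CPM. The *Aoah-/-* libraries were then far apart, and *Aoah-/-* mouse 2 lay less than 1.5-fold below WT.

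*S100a8*, at 23.4, 8.79 and 44.9 CPM, and *S100a9*, at 35.6, 26.4 and 125 CPM, were the other pair called lower. Of the 110 UMIs of both genes in the WT class, 106 lay in 1 cell, so both calls rest on that cell. All UMIs of either gene in WT lay in 5 cells or fewer, as did every UMI in *Aoah-/-* mouse 3. *S100a10* was at 308, 396 and 576 CPM and *Anxa1*, the ligand of formyl peptide receptors, at 126, 132 and 172 CPM, each below the WT level in both *Aoah-/-* libraries but not called. *Anxa2*, at 154, 308 and 251 CPM, had the WT library in between.

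Injured tubule-like cells formed a pair of clusters that differed in their members. The first, led by *Lcn2*, *Clu* and *Krt18*, had 364, 411 and 250 cells in *Aoah-/-* mice 2 and 3 and the WT mouse. It also had *Umod*, a gene of the ascending limb, among its leading genes, and *Havcr1*, the proximal tubule injury marker, at only 4.51, 12.8 and 17.7 CPM. The second, led by *Ccl2*, *Vcam1*, *C3* and *Sox9*, had 185, 386 and 117 cells, with *Havcr1* at 136, 133 and 166 CPM and *Vcam1* at 831, 729 and 706 CPM. *Slc34a1*, a phosphate transporter of proximal tubules, was at 1117, 1014 and 1154 CPM in the second cluster and 131, 136 and 145 CPM in the first.

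*Anxa1* and *Anxa2* were higher in both *Aoah-/-* libraries in the *Lcn2* cluster of injured tubule-like cells with every cell and without the 5 highest cells of each library. In the *Lcn2* cluster it was at 261, 408 and 164 CPM, a log2 ratio of 1.02 (SD 0.45), with Poisson intervals of 247 to 276, 391 to 425 and 152 to 177. It was called higher, and remained so without the 5 highest cells, at 229, 359 and 136 CPM. After thinning, 22.0, 22.6 and 11.2% of the cells held a UMI of *Anxa1*, against 1.34, 3.1 and 0.644% of the free RNA reference, and without thinning 61.0, 67.6 and 46.0%. The *Vcam1* cluster had little of it, at 25.7, 17.0 and 19.2 CPM.

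*Anxa2*, the membrane partner of S100A10, was at 411, 578 and 282 CPM in the *Lcn2* cluster, a log2 ratio of 0.81 (SD 0.35). Both *Aoah-/-* libraries lay above the WT library, but *Aoah-/-* mouse 2 by a log2 ratio of 0.54, just short of a call. In the *Vcam1* cluster it was at 350.5, 427 and 396 CPM, with the WT library between the others. *S100a10* itself was level in the *Lcn2* cluster, at 739.8, 864 and 734 CPM, and in the *Vcam1* cluster it was at 929, 1001 and 1221 CPM with WT the highest. *S100a11*, the partner of annexin A1, was at 1503, 1723 and 1347 CPM in the *Lcn2* cluster and 936, 1077 and 1095 CPM in the *Vcam1* cluster and was not called in either.

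*S100a6* was abundant in the *Lcn2* cluster, at 1253, 1551 and 1267 CPM, with the WT library between the *Aoah-/-* libraries. In the *Vcam1* cluster it was lower and was called higher in *Aoah-/-*, at 333, 543 and 188 CPM, a log2 ratio of 1.21 (SD 0.50). That call held without the 5 highest cells, at 217, 353 and 113 CPM. Yet the share of cells with a UMI after thinning was 13.6, 23.8 and 13.8%, so *Aoah-/-* mouse 2 and WT were alike by that measure. *S100a4* did not pass the minimum in either cluster, at 17.6, 22.0 and 7.10 CPM in the *Lcn2* cluster.

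*S100a8* and *S100a9* were also called higher in the *Lcn2* cluster, but on a handful of cells. *S100a8* was at 44.2, 32.5 and 0.254 CPM and *S100a9* at 92.3, 69.7 and 1.01 CPM in *Aoah-/-* mice 2 and 3 and the WT mouse. Of the 636 and 544 UMIs of both genes in *Aoah-/-* mouse 2 and *Aoah-/-* mouse 3, 91.4% and 84.6% lay in 3 cells of each library. Without the 5 highest cells *S100a9* was at 8.04, 9.99 and 0 CPM, below the free RNA reference treated in the same way. After thinning, 1.37, 2.92 and 0% of the cells held *S100a9*. The 15 granulocyte markers summed to 101, 89.0 and 29.2 CPM in the cluster, with 0, 1 and 6 of them at 0, and their part in the difference was not tested.

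*Saa3* and *Slpi* were at 24.1, 37.0 and 1.01 CPM and 36.9, 25.4 and 6.85 CPM in the *Lcn2* cluster and were called higher. In this cluster 9 members passed and 5 were called higher, where 2.23% of 6688 genes were called higher and 1.67% lower. In *Aoah-/-* mouse 3, 5 cells held 96.4% of the *Saa3* UMIs, and without them the level was 1.35 CPM. In *Aoah-/-* mouse 2 the *Saa3* level was under that of the free RNA reference. With every cell so was that of *Slpi*, for which the reference was at 43.7 CPM. Without the 5 highest cells of each, *Slpi* of *Aoah-/-* mouse 2 was at 22.9 CPM in the cluster and 22.2 CPM in the reference. Of the *Slpi* UMIs of *Aoah-/-* mouse 3, 5 cells held 68.1%. Without them *Slpi* was at 8.29 CPM, against 4.62 CPM in the reference treated in the same way. Over both clusters together, 9 members passed the minimum and 5 were called higher (*S100a8*, *S100a9*, *Saa3*, *Slpi* and *Anxa1*), where 1.48% of 6779 genes were called higher and 1.27% lower. Without the 5 highest cells the other 4 fell below the minimum, and the call of *Anxa1* was left. Without the barcodes shared between libraries *Saa3* fell below the minimum. In the *Vcam1* cluster 7 members passed and 2 were called higher, *S100a6* and *S100a9*, where 1.94% of 6769 genes were called higher and 1.43% lower. *S100a9* was at 9.81, 70.6 and 3.96 CPM there, and without the 5 highest cells at 7.31, 15.5 and 0.693 CPM, below the free RNA reference treated in the same way. Over both clusters together, the median log2 ratio was 0.81 over the 9 members that passed with every cell. Without the 5 highest cells it was 0.26, but 4 of the 9 no longer passed and were not in it. These medians cover unlike sets of members, so the fall does not show that the remaining members weakened. Over all genes tested with every cell the median was -0.04. In the *Vcam1* cluster alone the median of the members was 0.15, against -0.06 over all genes tested.

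**Figure D3:**
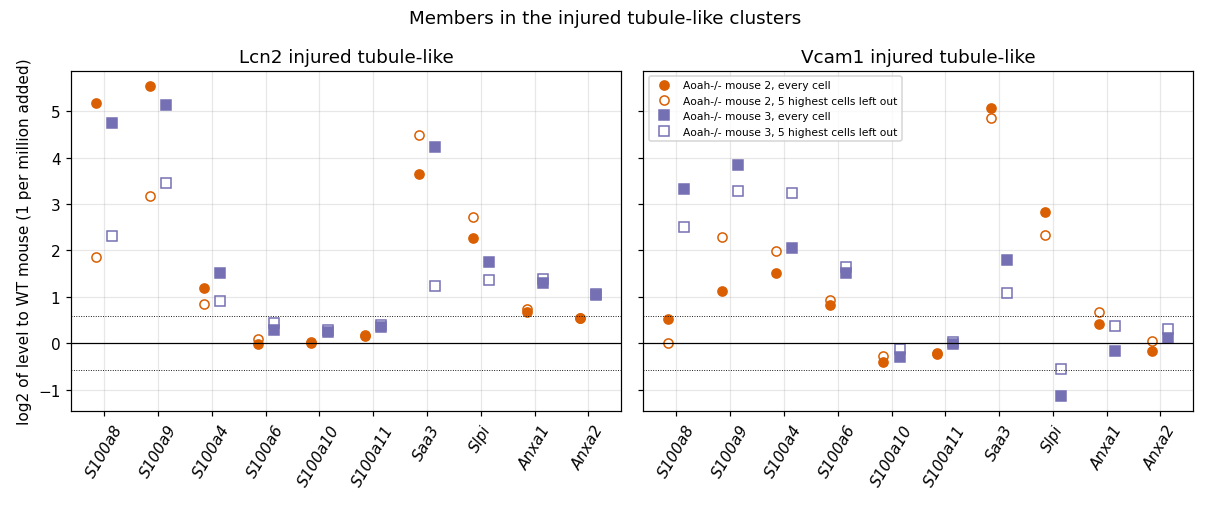
Log2 ratio of each *Aoah-/-* library to the WT mouse (y axis, 1 CPM added) for the 10 members (x axis) in the *Lcn2* and the *Vcam1* cluster of injured tubule-like cells, with every cell (filled) and without the 5 cells highest for the gene (open). Dotted lines mark 1.5-fold. *Anxa1* and *Anxa2* of the *Lcn2* cluster keep their positions above 0 when those cells are left out, and *S100a8* and *S100a9* of that cluster come down but stay above 0.

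In PTEC-like cells most members were low. Only *S100a10* and *S100a11* passed the minimum, and 0 of these 2 were called, where 1.84% of 5118 genes were called higher and 0.879% lower. *S100a10* was at 154, 152 and 149 CPM in *Aoah-/-* mice 2 and 3 and the WT mouse, a log2 ratio of 0.04 (SD 0.02). *S100a11* was at 138, 140.4 and 123 CPM, a log2 ratio of 0.18 (SD 0.02). *S100a9*, at 12.8, 16.1 and 2.5 CPM, and *S100a6*, at 23.1, 16.3 and 9.47 CPM, were below the minimum as group values. Without the 5 highest cells *S100a9* was at 10.8, 14.7 and 2.10 CPM, against 14.0, 56.9 and 1.99 CPM in the free RNA reference. *S100a10* and *S100a11* were thus level between the libraries, whereas *S100a9* was lowest in WT. *Saa3*, given above, and *Slpi*, at 21.5, 1.35 and 4.05 CPM, were highest in *Aoah-/-* mouse 2. *Anxa1* and *Anxa2* were near absent, at 1.00, 1.60 and 0.832 CPM and 2.76, 4.49 and 1.45 CPM.

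Across the other classes each of the remaining S100 genes had its own order. *S100a4* was highest in monocyte-like cells, at 1616, 1748 and 1870.0 CPM, and next in dendritic-like cells, at 1057, 1059 and 1279 CPM, with no overlap between these classes. T lymphocyte-like cells, at 524, 666 and 719 CPM, and endothelial-like cells, at 500.4, 484 and 715 CPM, followed, and their ranges over the libraries overlapped. In these 4 classes the WT level was the highest, by less than 1.5-fold. Natural killer-like cells, at 270.0, 401 and 219 CPM, had the WT library lowest.

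*S100a6* was foremost a urothelial gene, at 10234, 8446 and 10334 CPM in urothelial-like cells, a class with *Upk3a* and *Krt15* among its leading genes. These cells held 66.6, 33.6 and 39.7% of the *S100a6* UMIs. Their number differed, with 520, 364 and 169 cells, and the level over all kept cells was 982, 529.7 and 487 CPM. Among named classes granulocyte-like and fibroblast-like cells followed, and their ranges overlapped. *S100a11* had its highest levels in granulocyte-like cells and then in urothelial-like cells, at 1544, 1366 and 1726 CPM, which overlapped with those of the *Lcn2* cluster. Intercalated-like cells, a class of the collecting duct, also had it, at 1016, 1018 and 944 CPM.

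By the mean over the libraries, *S100a10* was highest among named classes in natural killer-like cells, at 1193, 1261 and 1391 CPM, whose range did not overlap that of T lymphocyte-like cells, at 1070.1, 1046 and 1119 CPM. The *Vcam1* cluster of injured tubule-like cells overlapped with both, and fibroblast-like cells of the WT mouse were above both. *Anxa2* was spread over granulocyte-, monocyte-, natural killer- and injured tubule-like cells, whose ranges overlapped, with 394, 432 and 452 CPM in monocyte-like cells. *Anxa1* was at 156, 223 and 206 CPM in monocyte-like cells and 248, 209 and 231 CPM in granulocyte-like cells, and its WT level was highest in fibroblast-like cells.

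Fibroblast-like cells showed the widest difference of *Anxa1*, and the class was made up differently in the groups. It joins a cluster led by *Rgs5*, *Acta2* and *Ren1*, genes of pericytes and smooth muscle, with 51, 124 and 23 cells, and a cluster led by *Dcn*, *Pi16* and *Clec3b*, genes of adventitial fibroblasts, with 33, 144 and 363 cells in *Aoah-/-* mice 2 and 3 and the WT mouse. Within the *Dcn* cluster *Anxa1* was at 116, 85.3 and 1070.4 CPM. *S100a10* was at 436, 253 and 1585 CPM in it, and *S100a6* at 1777, 1198 and 2484 CPM. The WT library was the highest for each of these genes within the cluster, and also for *S100a11*, *Anxa2* and *Slpi*. It was not the highest for *S100a4*, at 14.5, 70.0 and 28.7 CPM, or for *S100a8*, *S100a9* and *Saa3*. The share of all genes that differed was not obtained for fibroblast-like cells, and the part of the class make-up was not tested. In the *Rgs5* cluster *Anxa1* was at 92.3, 117 and 80.5 CPM, with few WT cells behind it.

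**Figure D4:**
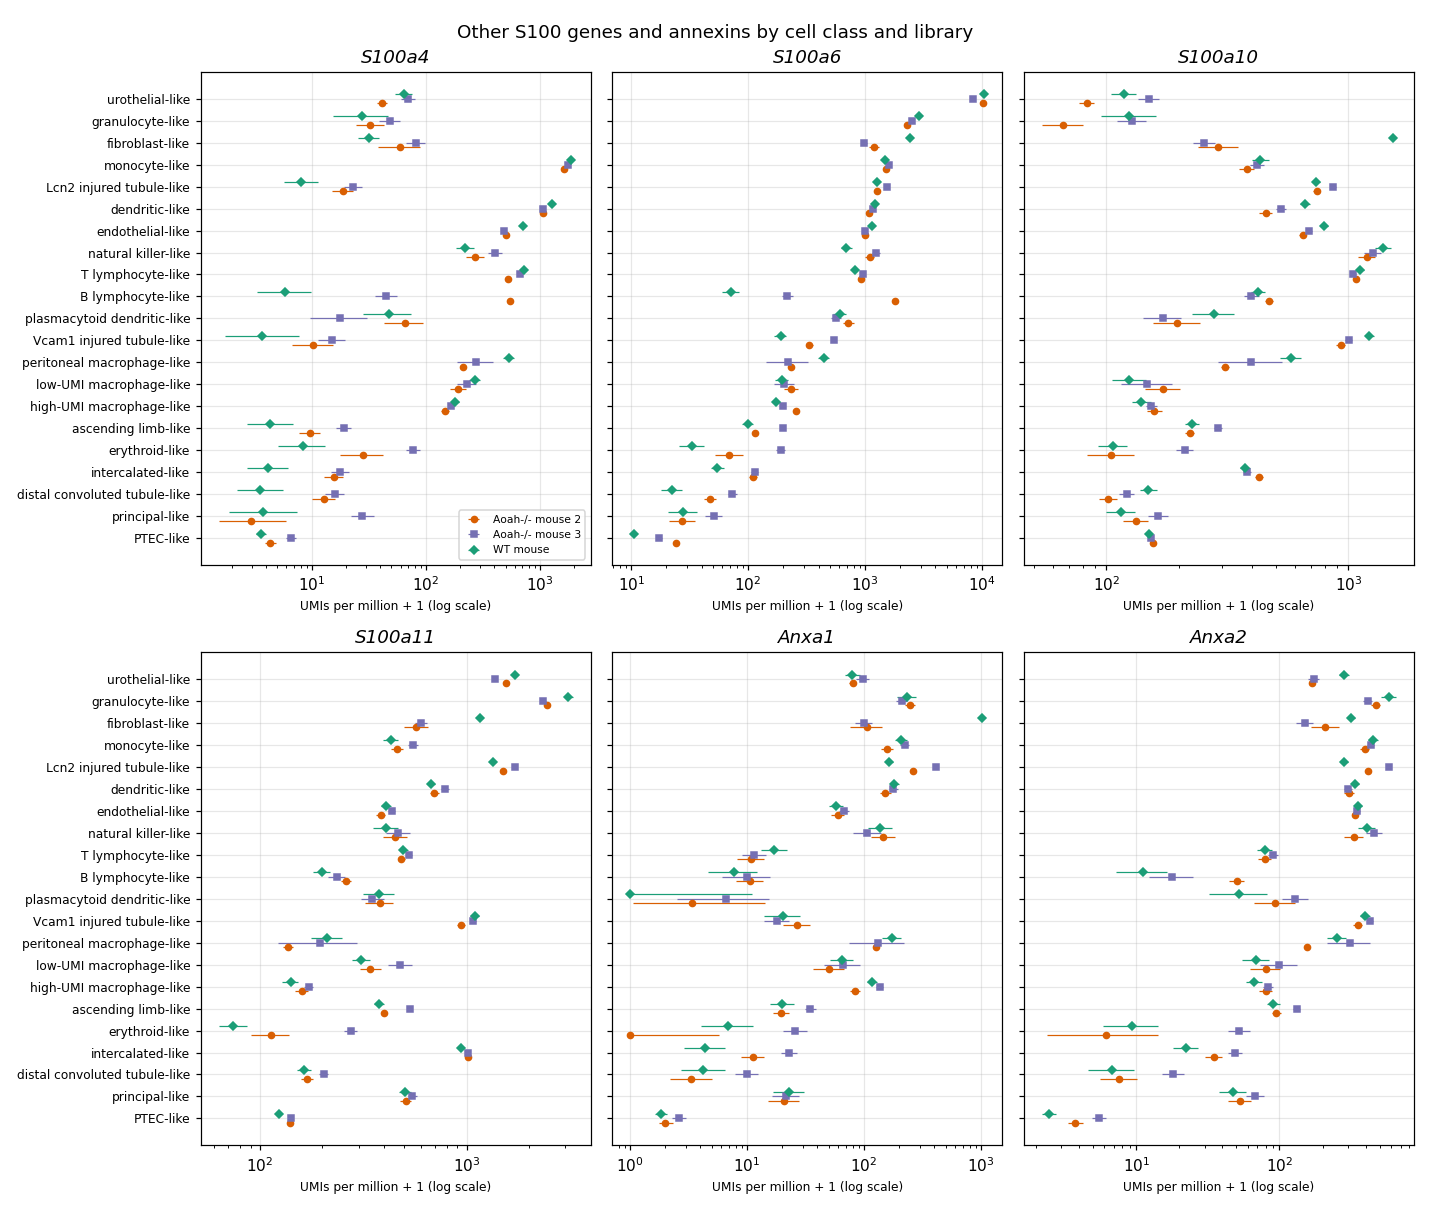
Level of S100a4, S100a6, S100a10, S100a11, Anxa1 and Anxa2 (x axis, CPM + 1, log scale) in each cell class (y axis) of the 3 libraries, with exact Poisson 95% intervals as bars. The 3 libraries lie close together in most leukocyte classes, and *S100a4* and *S100a6* of B lymphocyte-like cells and *Anxa1* and *S100a10* of fibroblast-like cells stand apart.

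B lymphocyte-like cells, led by *Cd79a*, *Ms4a1* and *Ly6d*, showed a wide difference of *S100a4* and *S100a6* that lay mainly in 1 library. *S100a4* was at 552, 43.9 and 4.79 CPM and *S100a6* at 1791, 216 and 70.0 CPM in *Aoah-/-* mice 2 and 3 and the WT mouse. Both were called higher, with log2 ratios of 5.69 (SD 2.56) and 3.82 (SD 2.15). The WT library had only 10 UMIs of *S100a4*, all in 5 cells. In *Aoah-/-* mouse 3, 5 cells held 43.6% of the *S100a4* and 47.7% of the *S100a6* UMIs. Without the 5 highest cells of each library *S100a4* was at 526, 25.3 and 0 CPM and *S100a6* at 1728, 116 and 32.1 CPM. *Aoah-/-* mouse 2 lay far above *Aoah-/-* mouse 3, which in turn lay above WT. After thinning, 40.5, 9.98 and 3.92% of the cells held *S100a6*, against 7.10, 11.4 and 4.34% of the free RNA reference. The reference was picked for lacking *S100a8* and *S100a9*, and whether it measures free RNA of *S100a6* was not tested. Ascending limb-like cells, which are part of it, held *S100a6* in 9.52, 14.9 and 5.65% of cells after thinning. In PTEC-like cells the share was 3.34, 3.04 and 1.43%, below that of B lymphocyte-like cells in every library. Without thinning the shares were 48.5, 18.1 and 7.53% in B lymphocyte-like cells and 23.0, 28.4 and 13.8% in the reference.

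Genes of B-1 lymphocytes, a B cell type of body cavities, moved with them. *Zbtb32* was at 48.7, 5.06 and 2.40 CPM and *Bhlhe41* at 40.4, 14.1 and 4.79 CPM in *Aoah-/-* mice 2 and 3 and the WT mouse. The 7 B-1 genes summed to 245, 75.3 and 50.3 CPM, with none at 0, and all 7 were highest in *Aoah-/-* mouse 2. Of the 4 follicular genes listed, *Fcer2a*, at 93.5, 222 and 215 CPM, *Cr2* and *Ccr7* were lowest there, which is not stated of the remaining gene. All 4 summed to 636, 1147 and 1004 CPM. *Aoah-/-* mouse 2 was also the library with most peritoneal-like macrophages. Both lists were written after these levels had been seen, and their part in the difference was not tested.

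*Anxa2*, at 49.3, 16.9 and 10.1 CPM, and *S100a9*, at 25.6, 25.3 and 4.79 CPM, were the other members called higher in B lymphocyte-like cells. Without the 5 highest cells *S100a9* was at 14.4, 19.8 and 2.42 CPM, below the free RNA reference in *Aoah-/-* mouse 3 and close to it in the others. In all, 8 members passed the minimum and 4 were called higher, where 2.81% of 5580 genes were called higher and 2.65% lower. *S100a10*, at 469, 396 and 424 CPM, and *S100a11*, at 259, 234 and 198 CPM, were level.

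**Figure D5:**
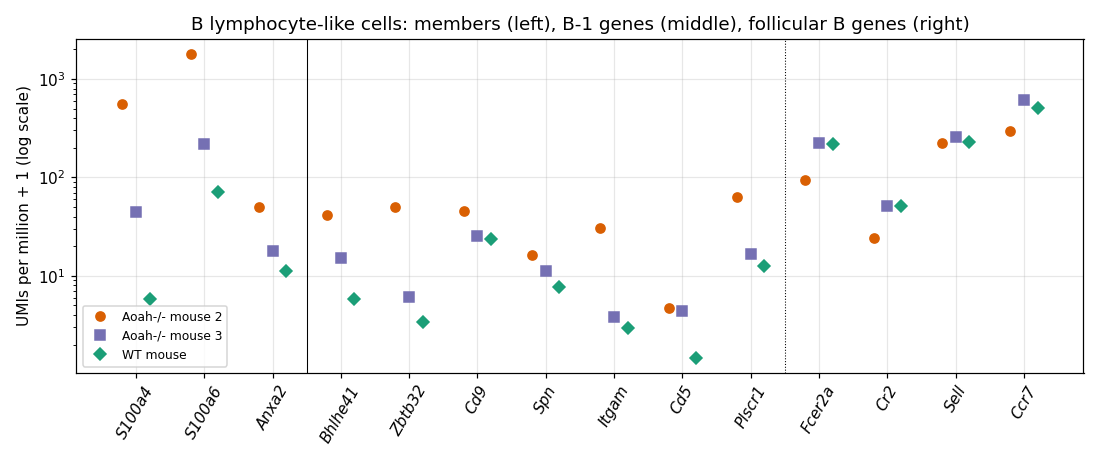
Level (y axis, CPM + 1, log scale) of 3 members, 7 B-1 genes and 4 follicular genes (x axis) in B lymphocyte-like cells of the 3 libraries, 1 point per library. *Aoah-/-* mouse 2 lies highest for the members and the B-1 genes and, of the 4 follicular genes, lowest for *Fcer2a*, *Cr2* and *Ccr7*. *Aoah-/-* mouse 3 lies between *Aoah-/-* mouse 2 and the WT mouse for the 3 members.

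Over 57 values (19 classes in 3 libraries), members followed each other to different degrees. These correlations of log2 levels share libraries and cells and are descriptions only. Pearson's r was 0.99 for *S100a8* with *S100a9*, 0.86 for *Anxa1* with *Anxa2*, 0.81 for *S100a6* with *Anxa2* and 0.69 for *Saa3* with *Slpi*. Other genes with the most similar pattern were *Cxcr2*, the neutrophil chemokine receptor, *Retnlg* and *Csf3r* for *S100a8* and *S100a9*, with r of 0.88 to 0.91. For *Saa3* they were *Prg4* (0.94), *Alox15* (0.93) and *Marco* (0.91), and for *Slpi* *F5*, *Padi4* and *Fpr2* (0.73 to 0.80). For *Anxa1* they were *Fosl2* (0.85), *Flna* and *Hk2*, and for *Anxa2* *Fosl2* (0.88), *Slc25a24* and *Flna*. *S100a4* was nearest to *Crip1* (0.88), *S100a6* to *Emd* (0.83), *S100a10* to *Rwdd1* (0.80) and *S100a11* to *Flot1* (0.78). *Cxcr2*, *Retnlg* and *Csf3r* are on the marker list that named granulocyte-like cells. *Prg4*, *Alox15* and *F5* are on that of peritoneal-like macrophages. The similarity to these genes is thus partly built into the classes.

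A list of 68 related genes, made up of other S100 genes, other annexins, acute phase genes, other alarmins, receptors, WAP proteins with SLPI targets and partners of the annexin A2 and S100A10 complex, was read with the same rule. The files held all 68. In the *Lcn2* cluster 27 of them passed the minimum, 4 were called higher and 4 lower. Over all genes the shares were those given above. Of the acute phase genes that passed, 3 of 4 were called higher. *Lcn2*, which encodes the siderophore-binding lipocalin NGAL, was at 2525, 3217 and 1636 CPM in *Aoah-/-* mice 2 and 3 and the WT mouse. *Cp*, which encodes ceruloplasmin, was at 103, 96.9 and 39.6 CPM and *Socs3*, the feedback inhibitor of IL-6 signalling, at 330.1, 381 and 170.1 CPM. *Plau*, the urokinase gene, was also higher, at 159, 172 and 98.6 CPM. The genes called lower were *S100g*, the calbindin of calcium-transporting tubules, at 668, 636 and 1049 CPM, and *S100a14*, *Anxa11* and *Trpv5*.

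In the *Vcam1* cluster 28 passed, 3 were called higher and 3 lower, against the shares over all genes given above. There *Socs3* was again higher, at 159, 117 and 77.3 CPM, but *Lcn2* was lower, at 59.8, 36.0 and 111 CPM, as were *Fgb* and *Hp*. In PTEC-like cells 14 passed and 2 were called higher, where 1.84% of all genes were. These were the fibrinogen genes *Fgg*, at 28.2, 23.4 and 13 CPM, and *Fga*, at 22.7, 21.2 and 11.3 CPM. In granulocyte-like cells 34 passed, 6 were called higher and 1 lower, which is near the 13.6% and 3.67% of all genes called there and no result about the list. Their values are given as a description. Among them were *Tlr4*, the receptor of LPS and calprotectin, at 59.9, 61.4 and 37.0 CPM, and *Ltf*, which encodes lactoferrin, at 26.4, 102 and 8.23 CPM. *Emb*, which encodes the membrane glycoprotein embigin, was lower at 196, 186 and 307 CPM. In peritoneal-like macrophages 30 passed, 5 were called higher and 3 lower, where 9.57% and 3.17% of all genes were. Those higher included the alarmin *Il1a* at 258, 387 and 136 CPM and the annexin A1 receptor *Fpr2* at 77.8, 70.3 and 38.7 CPM, and those lower were *Anxa3*, *Anxa5* and *Hp*. In macrophage-like cells 28 passed, 2 were called higher and 3 lower, where 2.93% and 0.781% of all genes were. The 3 genes called lower (*Elane*, *Ngp* and *Camp*) had no UMI in *Aoah-/-*, and the WT barcode described above held UMIs of each. In B lymphocyte-like cells 17 passed and 2 were called higher, *Wfdc2* and *Socs3*, where 2.81% of all genes were. *Socs3* was at 209.7, 43.3 and 17.7 CPM, highest in *Aoah-/-* mouse 2, and was picked out after its values were seen.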

How the data were processed

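The authors deposited raw UMI counts per gene and cell barcode for 3 libraries, after alignment to mm10. The submitters' processing notes name Cell Ranger 3.1.0, STAR and Seurat 4.2.0, while the header of the matrices names Cell Ranger 6.1.2. Barcodes were kept from 200 detected genes upward if mitochondrial genes took no more than 50% of their UMIs. Cells were clustered without the members, the related genes, *Aoah* and MHC class II genes (scanpy 1.11.5, 2000 variable genes, 50 principal components, 15 neighbours, Leiden resolution 1), and clusters of 50 or more cells were named by marker lists. Scrublet called 544 and 0 cells in the Aoah-/- libraries of mice 2 and 3 and 201 in WT. The caller therefore did not work in every library and doublets were kept. Counts were summed per class and library and scaled to 1000000 (CPM). Levels carry exact 95% Poisson intervals, and shares of cells carry exact Clopper-Pearson ones. A gene was called where both Aoah-/- libraries lay at least 1.5-fold to 1 side of the WT library after adding 1 CPM, among genes of 20 CPM or more in a group. With a single WT library no test was run. The calling step was tested on simulated data. All 10 members are named, as are related genes called by the same rule and the 3 genes with the most similar pattern. The members, the related genes and the marker lists were chosen with earlier results of these data known. Alternatives covered the cell filters, doublet scores, clustering, the added constant, the minimum, the fold and each Aoah-/- library. The promoter table and gene positions are RefSeq and GENCODE M21 on GRCm38. *S100a10* is missing from the promoter table.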

Additional observations from a re-analysis of the deposited data

Results flagged for a closer look

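*S100a8* and *S100a9* had log2 ratios of opposite sign in different classes, with every *Aoah-/-* library above WT in injured tubule-like cells and every one below it in macrophage-like and peritoneal-like macrophages. The log2 ratio of *S100a8* in injured tubule-like cells minus that in macrophage-like cells was 6.96, and minus that in peritoneal-like macrophages 5.73. For *S100a9* these differences were 6.85 and 6.59. Without the low-UMI macrophage-like cluster the macrophage-like ratios were positive, at 3.97 for *S100a8* and 3.68 for *S100a9*, against 4.31 and 4.61 in injured tubule-like cells. None of these differences was tested, and each rests on few cells, as given above.

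An unnamed cluster led by *Fabp4*, *Il1b* and *Emcn*, with genes of endothelium and of myeloid cells, had 183, 1828 and 124 cells in *Aoah-/-* mice 2 and 3 and the WT mouse and entered no comparison. *S100a8* in it was at 306 and 215 CPM in the *Aoah-/-* libraries against 60.5 CPM in the WT mouse. *S100a9* was at 683 and 563 CPM against 151 CPM, and *Slpi* at 71.5 and 48.9 CPM against 28.8 CPM. In the WT mouse 5 of the 124 cells held every UMI of *S100a8* and *S100a9*, and 5 cells held 90% of the *Slpi* UMIs. Only members called higher and at least 2-fold above WT by the mean are listed. *S100a4* went the other way, at 135 and 160 CPM against 199 CPM. The share over all genes was not obtained for this cluster.

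The barcodes left out by the cell filters numbered 4148, 5001 and 4870. In them *S100a8* was at 24.8 and 39.9 CPM in *Aoah-/-* mouse 2 and *Aoah-/-* mouse 3 against 7.25 CPM in the WT mouse, and *S100a9* at 56.7 and 97.0 CPM against 14.4 CPM.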

How the results depend on the processing

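Of the log2 ratios of single members, 232 moved by less than the spread between the *Aoah-/-* libraries and 95 by more. Another 9, all of members called in the main setting, changed sign. Sign changes of members not called there were not counted apart and lie within the 232 and 95. Settings whose outcome is fixed by construction (1 *Aoah-/-* library left out, the 100 CPM minimum) were not counted. Apart from the single clusters above, the share of all genes called was not obtained in these settings. The counts of members called below therefore have no background beside them. Each median below covers the members that passed the minimum in that setting, so medians of different settings can cover unlike sets. With 1 *Aoah-/-* library left out, only the other had to pass the fold, which is a looser rule. In macrophage-like cells *S100a8* became positive without the top 10% of doublet scores (2.81), at clustering resolution 2 (3.71), without the 5 highest cells (2.41) and without the low-UMI cluster (3.97). *S100a9* did so in the same settings (3.41, 3.67, 2.93 and 3.68) and with the mean of per-cell values (0.21). In peritoneal-like macrophages without the 5 highest cells *S100a8* was at 3.16 and *S100a9* at 2.90, which says nothing of direction and was not counted, since that setting removes every WT UMI. In PTEC-like cells 1 member was called at a mitochondrial share of at most 20% and with per-cell means, and 0 to 3 without 1 *Aoah-/-* library. The PTEC-like median was 0.72 and 1.39 in those settings, 0.092 with 30 principal components, 0.10 with 10 CPM added and 0.11 in the others, with 0.11 to 1.20 without 1 library. In injured tubule-like cells 1 member was called from 100 CPM or without the 5 highest cells and 2 in the *Vcam1* cluster alone, with medians of 0.12, 0.26 and 0.15. Without 1 library, 5 were called with medians of 0.59 to 0.86. In macrophage-like cells 1 member was called with per-cell means or without the 5 highest cells and 3 to 4 without 1 library. The median there was 0.21 at the stricter mitochondrial limit, 0.023 from 500 genes, 0.66 without top doublet scores, 0.47 at resolution 2, 0.16 with 30 components, 0.19 with members in the clustering, 0.20 with per-cell means, 0.033 from 100 CPM, 0.48 without the 5 highest cells, 0.30 without the low-UMI cluster and 0.13 to 0.15 without 1 library. In peritoneal-like macrophages 2 members were called without top doublet scores or the 5 highest cells, 1 at 2-fold and 5 to 7 without 1 library. Their median was -0.75 at the stricter mitochondrial limit, -0.45 without top doublet scores, -0.83 with 30 components, -0.89 with members in the clustering, -0.71 from 100 CPM, -0.72 without the 5 highest cells and -0.80 to -0.75 without 1 library. The share of *S100a8* and *S100a9* UMIs in granulocyte-like cells was 90.9% without top doublet scores and 80.2 to 85.5% without 1 library. The settings that leave out the 5 highest cells, the shared barcodes or 1 cluster were chosen after seeing the data, and the cause of each change was not tested. No paired analysis was possible because the groups share only 1 replicate number. Depth was not compared with these limits.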
